A study of Homo sapiens with 24 samples.

Results

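The genes described here build, empty, sense and refill the calcium store of the endoplasmic reticulum (ER). They were chosen by name and number 10 of the 19775 genes that had a probe set of their own on the array: the ER calcium pumps ATP2A2 and ATP2A3, the calcium release channels ITPR1, ITPR2 and ITPR3, the store sensors STIM1 and STIM2, the plasma membrane channel subunits ORAI1 and ORAI2, and the ER membrane protein TMBIM6. The brightest probe set of a gene stood for it, and all 10 passed a filter on low values, which left 10661 genes to test. They were measured in 4 human cell lines of T-cell acute lymphoblastic leukaemia (T-ALL), which are RPMI-8402, P12-ICHIKAWA, SUPT11 and TALL-1, each given either the compound NVS-ZP7-3 or its solvent DMSO for 16 h. Every culture, the controls included, held 0.5% DMSO. There were 3 arrays for each of the 8 combinations, 24 arrays in all. The labels give no dose or target for the compound, although the NVS-ZP7 compounds are known as inhibitors of SLC39A7 (ZIP7), which carries zinc out of the ER. Each line is 1 cell line, so a difference between lines is a difference between 4 cultured leukaemias and not between patients or subtypes. Nothing in the labels tells whether the 3 arrays of a group came from separate cultures, so the p-values measure the spread between these arrays, which may be technical.

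The ER holds calcium far above its concentration in the cytosol, because sarco/endoplasmic reticulum calcium ATPases (SERCA pumps) drive it in against the gradient. After T-cell receptor signalling, phospholipase C makes inositol trisphosphate (IP3), and IP3 receptors in the ER membrane open and let calcium out. STIM proteins sense the fall in the store and move to contacts with the plasma membrane, where they open ORAI channels. The calcium that enters activates calcineurin and the transcription factors of the NFAT family, and it refills the store through the SERCA pumps. The store also serves protein folding, since the chaperones of the ER bind calcium and need it.

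Expression is given on the log2 scale of the deposited values, so that a difference of 1 is a doubling of signal, and every comparison is made within a gene. Background lay at a floor of 2.18, and 52.4 to 53.9% of an array's probe sets lay within 0.1 of it, and array maxima lay between 16.1 and 16.2. T-cell markers were present in all groups, with 14 to 18 of 20 at log2 4 or more. On 3 arrays, sets of genes of other lines or of blood cells rose from the floor: TALL-1 treated replicate 2, SUPT11 treated replicate 2 and RPMI-8402 DMSO replicate 3, where HBB (beta-globin) stood at 14.65. None of the 10 genes was among those raised. A gene counted as raised only if it stood at log2 4 or more there and at 2.5 or less on the line's other arrays. Of the 10 genes, ITPR3 in TALL-1 alone was low enough to be counted, so this does not clear the others. ORAI2, at 2.86 to 2.88 with DMSO in SUPT11, stood at 3.20 on SUPT11 treated replicate 2. HBB was also high on other arrays, and in P12-ICHIKAWA it moved with treatment, at 2.18 to 2.29 with DMSO and 7.96 to 11.45 with the compound. It was the 1 erythroid marker of 6 at log2 4 or more in treated P12-ICHIKAWA, and the summed level of the 6 was 13.1 to 13.2 with DMSO and 18.9 to 22.4 treated. In RPMI-8402 it ranged from 2.32 to 14.65 with DMSO and from 8.63 to 12.99 treated, and the highest treated arrays of TALL-1 and SUPT11 stood at 7.96 and 10.61. HBB was tried as a covariate, and of the calls on the 10 genes by line and on average, the average of ATP2A3 alone was lost. The difference between the 3' and 5' ACTB control probe sets, a sign of RNA quality, rose with treatment by 0.49 in TALL-1 and by 0.30 in RPMI-8402, with exact permutation p = 0.1 each, the smallest that 3 against 3 arrays can give. In SUPT11 and P12-ICHIKAWA it moved by 0.048 and 0.044. The ACTB difference was therefore also tried as a covariate.

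The changes with NVS-ZP7-3 were few and mostly small. By limma with Benjamini-Hochberg adjustment over the 10661 genes, ITPR1 rose in TALL-1 to 1.81 times its DMSO level and in RPMI-8402 to 1.24 times. ATP2A3 fell in TALL-1 to 0.716 of its DMSO level. ATP2A2 rose in SUPT11 and RPMI-8402, STIM1 in P12-ICHIKAWA and RPMI-8402, and TMBIM6 in TALL-1 and RPMI-8402, by 0.11 to 0.28. ITPR2, ITPR3, ORAI1 and ORAI2 passed the test in no line and not on average.

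Counted by line, 3 of the 10 genes passed in TALL-1, where 41.9% of all tested genes did. In SUPT11 the count was 1, against 1.76% of all genes, and in P12-ICHIKAWA it was 1, against 7.89%. In RPMI-8402 it was 4, against 36.6%. The counts in TALL-1 and RPMI-8402 were close to the background of those lines. As the mean over the 4 lines, 6 genes passed, against 46.9% of all genes. Of these, 4 rose (ATP2A2, ITPR1, STIM1 and TMBIM6) and 2 fell (ATP2A3 and STIM2), while 22.4% of all genes rose and 24.5% fell. The median size of the effect, regardless of sign, was 0.192 for the 10 genes and 0.199 for all genes in TALL-1, and 0.153 against 0.184 in RPMI-8402. In SUPT11 it was 0.048 against 0.062, and in P12-ICHIKAWA 0.153 against 0.094. Treated and DMSO arrays did not overlap for 4 of the 10 genes in TALL-1 (48.8% of all genes) and for 2 in SUPT11 (16.6%). P12-ICHIKAWA had 3 such genes (21.4%) and RPMI-8402 had 4 (49.2%).

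**Figure D1:**
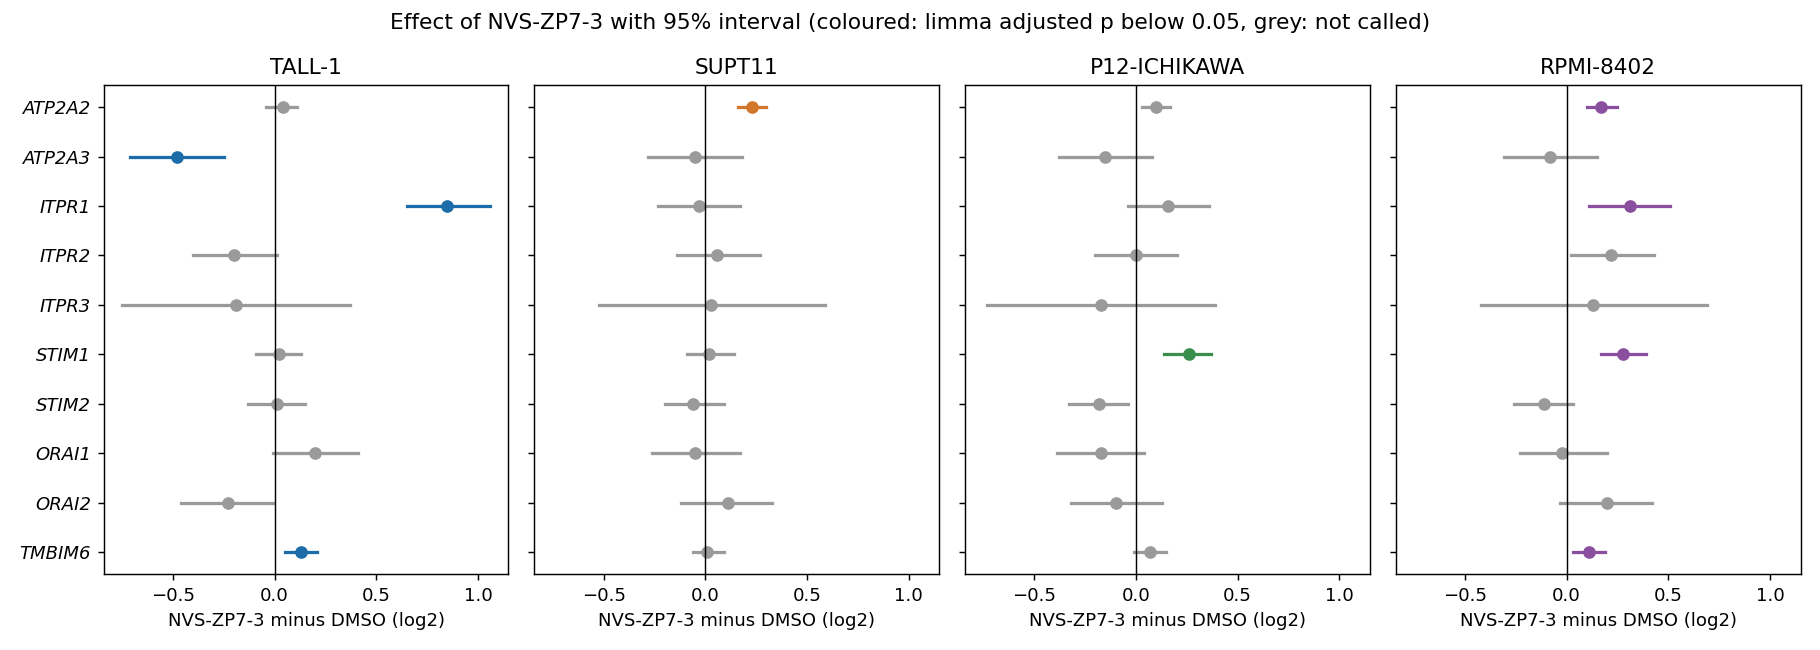
Effect of NVS-ZP7-3 on the 10 genes (rows) in each of the 4 lines (panels), as treated minus DMSO on the log2 scale, with the 95% interval from the limma fit over 24 arrays. Coloured points passed at an adjusted p below 0.05 and grey points did not. The effect of ITPR1 in TALL-1, at 0.85, stands farthest from 0, and the intervals of ITPR3 are the widest.

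ATP2A2 encodes SERCA2, the pump that nearly all cells use to fill the store. Its signal was high in every line. In SUPT11 the DMSO arrays stood at 13.92, 13.89 and 13.91 and the treated arrays at 14.12, 14.12 and 14.16, so the groups were clearly apart. The rise was 0.23 ± 0.034 (SE, adjusted p = 0.000736), which is 1.17-fold. In RPMI-8402 the DMSO arrays stood at 14.36, 14.34 and 14.31 and the treated arrays at 14.53, 14.48 and 14.52, a rise of 0.17 ± 0.034 (adjusted p = 0.000631). P12-ICHIKAWA had 14.36, 14.36 and 14.41 with DMSO and 14.44, 14.48 and 14.51 with the compound, again without overlap, but the difference of 0.10 did not pass (adjusted p = 0.0924). In TALL-1 the groups overlapped, with 14.20, 14.24 and 14.20 against 14.21, 14.26 and 14.28 (difference 0.04, adjusted p = 0.468). The effect differed between lines by the F test of the interaction (adjusted p = 0.0194). It was 0.13 ± 0.040 below the mean of the other 3 lines in TALL-1 (adjusted p = 0.0186) and 0.13 ± 0.040 above it in SUPT11 (adjusted p = 0.0404).

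These differences are small and rest on a very narrow spread between arrays. The residual SD of ATP2A2 was 0.027, and 0.572% of the tested genes had a lower one. The second brightest probe set of the gene gave larger differences. On it the effect was 0.52 ± 0.097 in SUPT11 (adjusted p = 0.00649) and 0.80 ± 0.097 in RPMI-8402 (adjusted p = 4.21e-06), with 0.30 in P12-ICHIKAWA (adjusted p = 0.0846) and 0.12 in TALL-1 (adjusted p = 0.360). Both probe sets thus called the same lines, while the size in RPMI-8402 was 0.17 on one and 0.80 on the other. Another, dim probe set at 2.46 to 4.77 with DMSO called no line. With the mean of all probe sets of the gene, the call in SUPT11 was lost (0.21, adjusted p = 0.172).

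Of the 7 genes with a promoter window, ATP2A2 alone matched the ER stress response element (ERSE) with its last letter left free. The ERSE is CCAAT and CCACG with any 9 bases between them. It is the motif through which ATF6 and the factor NF-Y are known to induce ER chaperones. Mismatches at its other letters were not searched. The RefSeq promoter table (GRCh38.p14) held 12 windows of 250 bases before a transcription start for 7 of the 10 genes, and ATP2A3, ITPR2 and ORAI1 had no entry matched. The full motif, sought on both strands, was in 26 of 35116 such windows (0.074%) and in none of the 12. With the last letter left free it was in 99 windows (0.282%), among them the window of the second listed start of ATP2A2, 63 to 45 bases before that start. Of 13 calcium-binding protein genes of the ER and Golgi with a window, 5 held the full motif. The sites are printed to set the ATP2A2 site beside those of the chaperones, with capitals on the fixed letters of the motif. They are reference sequence, not sequence of these lines, and a match is a description and not a measured binding site. The ATP2A2 site (chr12:110281184-110281202, plus strand) ends in a different letter from the motif:
ATP2A2: CCAATgagcggcgtCCACA
The sites of the 5 other genes are those of HSPA5 (chr9:125241391-125241409, minus strand), HSP90B1 (chr12:103930216-103930234, plus strand, and chr12:103930321-103930339, minus strand), CALR (chr19:12938384-12938402, minus strand), CANX (chr5:179698778-179698796, plus strand) and PDIA6 (chr2:10812853-10812871, minus strand):
HSPA5: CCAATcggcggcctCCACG
HSP90B1, first site: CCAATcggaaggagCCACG
HSP90B1, second site: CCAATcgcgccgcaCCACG
CALR: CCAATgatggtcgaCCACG
CANX: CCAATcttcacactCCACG
PDIA6: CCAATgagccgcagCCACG

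All 5 of these genes rose on average over the lines, as most genes of their list did. HSPA5 (BiP), the main chaperone of the ER lumen, rose most in RPMI-8402 (1.43) and SUPT11 (1.36), then in P12-ICHIKAWA (1.05) and TALL-1 (0.40), each with an SE of 0.067. HSP90B1 (GRP94) rose by 0.86, 0.73, 0.49 and 0.30 in the same order (SE 0.060). The calcium-buffering lectin chaperone CALR rose in SUPT11 by 0.73 ± 0.089 and in RPMI-8402 by 0.43 ± 0.089, with 0.18 and 0.23 in TALL-1 and P12-ICHIKAWA, which did not pass. As for ATP2A2, the values of HSPA5 and HSP90B1 were lowest in TALL-1, while CANX was lowest in P12-ICHIKAWA (0.12, against 0.19 in TALL-1). In SUPT11, the line with the fewest calls, ATP2A2 was called and so were all 5 of these genes. PDIA3 and PDIA4, which are not among the genes with a printed site, were called there too (0.44 each). Whether the motif has a part in these calls was not tested.

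**Figure D2:**
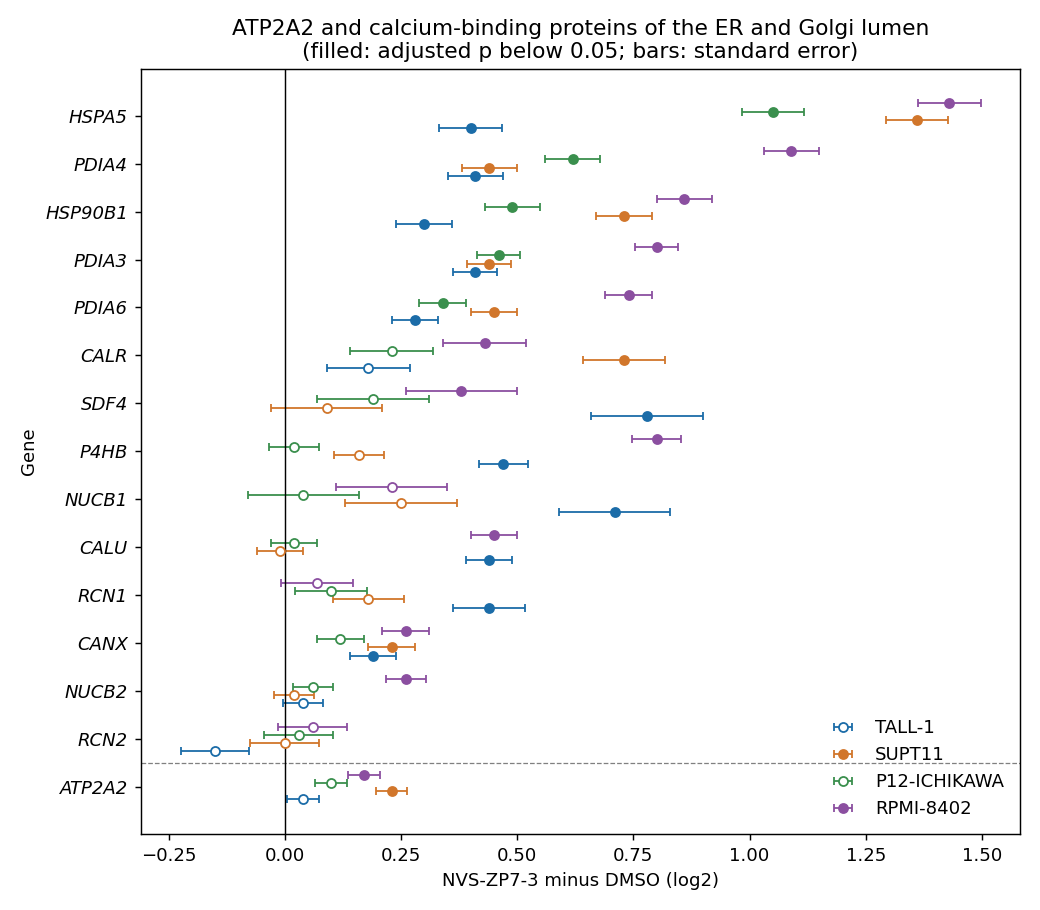
Effect of NVS-ZP7-3 on ATP2A2 (bottom row) and on 14 calcium-binding proteins of the ER and Golgi lumen (other rows, ordered by mean effect), with 1 point per line and standard errors as bars. Filled points passed at an adjusted p below 0.05. On its brightest probe set, the one plotted, ATP2A2 lies between 0.04 and 0.23, and HSPA5 between 0.40 and 1.43; the second probe set of ATP2A2 gave up to 0.80.

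ATP2A3 encodes SERCA3, a pump of lower calcium affinity that is known mainly from blood cells and some epithelia. Of the pumps ATP2A2 and ATP2A3, it was the one that fell. In TALL-1 the DMSO arrays stood at 12.29, 11.93 and 12.01 and the treated arrays at 11.56, 11.64 and 11.58, without overlap, a fall by 0.48 on the log2 scale (SE 0.11, adjusted p = 0.00165). The other lines showed overlapping arrays and no call. SUPT11 had 10.21, 10.14 and 10.19 against 10.10, 10.06 and 10.23 (difference -0.05, 95% interval -0.28 to 0.18). P12-ICHIKAWA had 12.06, 11.65 and 11.55 against 11.50, 11.78 and 11.54 (-0.15, -0.38 to 0.08), and RPMI-8402 had 12.06, 12.12 and 11.94 against 11.93, 12.02 and 11.93 (-0.08, -0.31 to 0.15). The intervals leave room for falls smaller than that in TALL-1. The effect in TALL-1 was 0.39 ± 0.13 below the mean of the other 3 lines (adjusted p = 0.0288), although the F test over the 4 lines did not pass (adjusted p = 0.104). The other 3 probe sets of ATP2A3 above the filter gave -0.48, -0.46 and -0.50 in TALL-1, and all were called there and in no other line. On average over the lines the gene fell by 0.19 ± 0.055 (adjusted p = 0.00849), an average that is mostly TALL-1. That call was lost with HBB as a covariate (-0.14, adjusted p = 0.112). With the ACTB difference as a covariate, the values became -0.91 in TALL-1 and -0.35 in RPMI-8402, the latter then called (adjusted p = 0.0107). The ratio of signal between the 2 pumps cannot be read from different probe sets. Their changes went opposite ways on average, 0.13 ± 0.017 higher for ATP2A2 (adjusted p = 4.31e-06) and 0.19 lower for ATP2A3. In the main fit no single line was called for both pumps. The second probe set of ATP2A3 was not called on average (-0.11, adjusted p = 0.0939).

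ITPR1 encodes the type 1 IP3 receptor, a channel that opens on IP3 and calcium and empties the store. It had the largest change of the 10 genes. In TALL-1 the DMSO arrays stood at 9.19, 9.30 and 9.07 and the treated arrays at 10.16, 10.02 and 9.95. The groups stood well apart, and the rise was 0.85 ± 0.096 (adjusted p = 8.20e-07). In RPMI-8402 the DMSO arrays stood at 11.04, 11.03 and 10.80 and the treated arrays at 11.25, 11.31 and 11.24, a rise of 0.31 ± 0.096 (adjusted p = 0.0156). In P12-ICHIKAWA the values overlapped, at 8.93, 8.75 and 8.59 with DMSO and 8.93, 9.10 and 8.71 with the compound (0.16, 95% interval -0.04 to 0.36). SUPT11 was level, at 9.34, 9.32 and 9.30 against 9.32, 9.32 and 9.23 (-0.03, -0.23 to 0.17). Its interval does not reach the estimates of TALL-1 or RPMI-8402, but it overlaps the interval of RPMI-8402 (0.11 to 0.51). SUPT11 and RPMI-8402 were not compared by themselves. The effect differed between lines (F test, adjusted p = 0.000285). It was 0.71 ± 0.11 above the mean of the other 3 lines in TALL-1 (adjusted p = 8.73e-05) and 0.47 ± 0.11 below it in SUPT11 (-0.47, adjusted p = 0.00630).

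The call of ITPR1 in TALL-1 held on each of its 3 probe sets above the filter, with 0.95 on the second and 1.56 on the third, dimmer one, both called. It was 0.59 (adjusted p = 0.00234) with the ACTB difference as a covariate. The call in RPMI-8402 was less firm. It was 0.42 on the second probe set (adjusted p = 0.00309) and 0.30 on the third, with a standard error of 0.30. It was lost with the ACTB covariate (0.15, adjusted p = 0.325) and without the 3 arrays with foreign transcripts (0.23, adjusted p = 0.116). It was also lost without RPMI-8402 DMSO replicate 3 (0.23, adjusted p = 0.0892) and without RPMI-8402 treated replicate 2 (0.29, adjusted p = 0.0517).

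The RefSeq promoter window of ITPR1, printed because this gene moved most, held none of the stress motifs searched: neither ERSE, nor ERSE-II (ATTGG and CCACG with 1 base between them, 0.0513% of windows), nor the ATF4 element TGATGNAA (3.14%), nor TGACGTG (1.68%), each sought on both strands. It held the TATA letters TATANAA, 30 to 24 bases before the start and set in capitals, which 8.41% of windows held. The window is chr3:4493098-4493347 on the plus strand:
ITPR1: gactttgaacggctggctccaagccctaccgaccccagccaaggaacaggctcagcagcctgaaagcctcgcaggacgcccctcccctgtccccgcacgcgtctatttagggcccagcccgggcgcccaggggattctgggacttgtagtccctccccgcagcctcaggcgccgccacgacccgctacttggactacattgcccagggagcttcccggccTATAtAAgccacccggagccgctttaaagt

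ITPR2 encodes the type 2 receptor, the subtype with the highest affinity for IP3. In TALL-1 all 3 treated arrays (10.15, 10.13 and 10.07) lay below the DMSO arrays (10.25, 10.32 and 10.38), but the difference of -0.20 did not pass (95% interval -0.40 to 0.01, adjusted p = 0.118). In RPMI-8402 the DMSO arrays stood at 11.54, 11.18 and 11.40 and the treated arrays at 11.63, 11.79 and 11.37, a difference of 0.22 with an adjusted p of 0.0835. SUPT11 (9.19, 9.33 and 9.09 against 9.25, 9.35 and 9.20) and P12-ICHIKAWA (8.93, 8.82 and 8.92 against 8.99, 8.88 and 8.80) were level within 0.06. Its 3 dimmer probe sets gave no call either. Some alternatives did call ITPR2: RPMI-8402 without its DMSO replicate 1 (0.30, adjusted p = 0.0309) or without its treated replicate 3 (0.34, adjusted p = 0.00944), and TALL-1 fitted by itself (-0.20, adjusted p = 0.0283). Whether the type 1 and type 2 receptors differed in their response was not tested.

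ITPR3 encodes the type 3 receptor, which is prominent at contacts of the ER with mitochondria. It was near the floor in TALL-1, at 2.47, 2.47 and 2.46 with DMSO and 2.18, 2.47 and 2.18 with the compound. P12-ICHIKAWA had the most, at 7.15, 6.77 and 6.36 against 6.67, 7.12 and 5.99. SUPT11 (4.09, 4.28 and 3.87 against 4.21, 4.15 and 3.99) and RPMI-8402 (4.27, 4.94 and 3.82 against 4.33, 4.76 and 4.34) lay between them. The treated arrays overlapped the DMSO arrays in all lines. The standard error of 0.27 was the widest of the 10 genes, so smaller changes were not detectable. The 95% intervals ran from -0.75 to 0.69 over the lines.

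**Figure D3:**
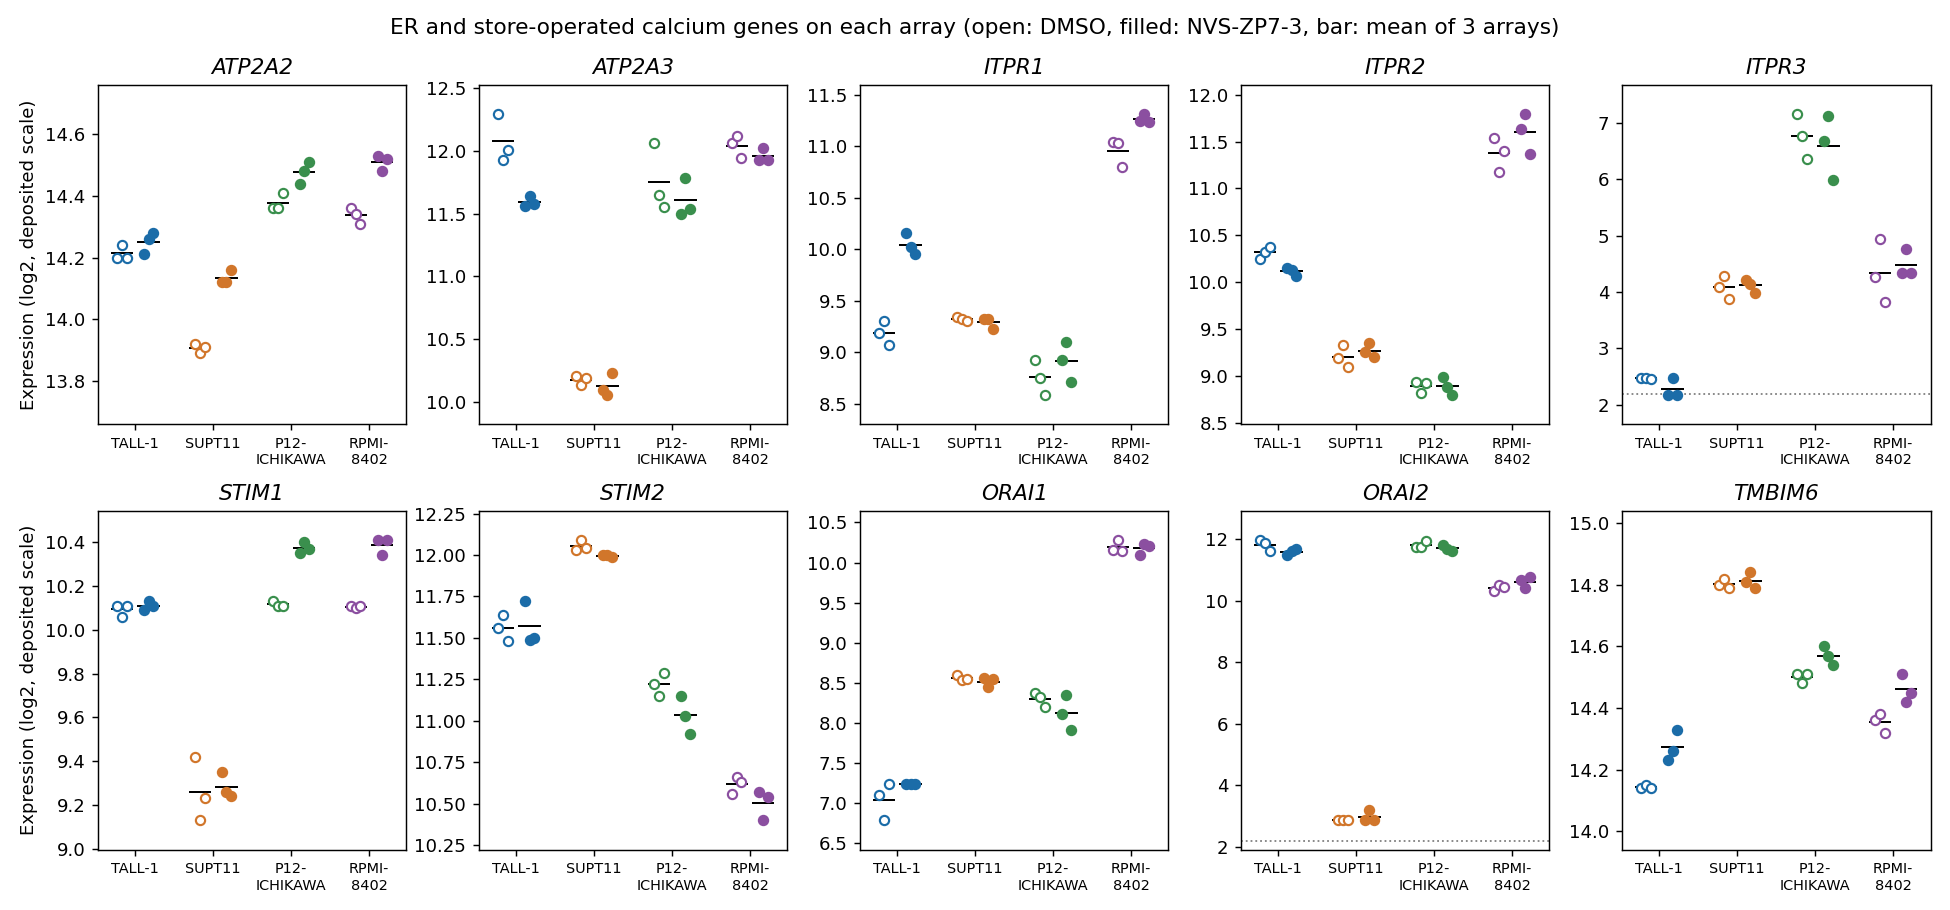
Log2 expression of the 10 genes (panels, each with its own axis) on each of the 24 arrays, by line. Open points are DMSO, filled points NVS-ZP7-3, bars the mean of 3 arrays and dotted lines the floor of 2.18. For most genes the lines stand farther apart than the treatments within a line; for ITPR1 in TALL-1 the 3 treated arrays stand clear of the 3 DMSO arrays.

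STIM1 encodes the main ER calcium sensor, which opens ORAI channels when the store empties. In P12-ICHIKAWA the DMSO arrays stood at 10.13, 10.11 and 10.11 and the treated arrays at 10.35, 10.40 and 10.37, a rise of 0.26 ± 0.054 (adjusted p = 0.00494), or 0.27 with HBB as a covariate (adjusted p = 0.0309). In RPMI-8402 they stood at 10.11, 10.10 and 10.11 and at 10.41, 10.34 and 10.41, a rise of 0.28 ± 0.054 (adjusted p = 0.000448). In both lines the treated arrays were all higher. TALL-1 (10.11, 10.06 and 10.11 against 10.09, 10.13 and 10.11) and SUPT11 (9.42, 9.13 and 9.23 against 9.35, 9.26 and 9.24) gave 0.02 each, with upper interval bounds of 0.13 and 0.14. The effect differed between lines by the F test (adjusted p = 0.0107), though no single line passed against the mean of the other 3 (adjusted p = 0.0505 to 0.163).

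Part of the STIM1 signal was repeated between arrays. Exactly the same value, 10.11 to every deposited digit, stood on 6 of the 24 arrays for STIM1, in TALL-1, P12-ICHIKAWA and RPMI-8402. All of them but TALL-1 treated replicate 3 were DMSO arrays. Of the tested genes, 2.52% had at least 5 repeats, counted over all values of a gene above log2 3 and not only for 1 shared value. The SD of the DMSO arrays was 0.0071 in RPMI-8402, where 1 array held that value, and 0.15 in SUPT11, which held none. The part of the repeats in the spread was not tested. The other probe set of STIM1 above the filter, a dim one, gave 1.77 ± 0.57 in RPMI-8402 (adjusted p = 0.0221) and -0.69 ± 0.57 in P12-ICHIKAWA, opposite in sign and not called. The mean of all probe sets therefore gave -0.22 in P12-ICHIKAWA, while it kept a rise of 1.02 in RPMI-8402.

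STIM2, the sensor that answers to small losses from the store and holds resting calcium, went slightly the other way on its brightest probe set. In SUPT11 the treated arrays (12, 12 and 11.99 after rounding) all lay below the DMSO arrays (12.03, 12.09 and 12.04), but the difference of -0.06 did not pass. P12-ICHIKAWA had 11.22, 11.15 and 11.29 against 11.15, 11.03 and 10.92 (-0.18, adjusted p = 0.125), and RPMI-8402 had 10.56, 10.66 and 10.63 against 10.57, 10.40 and 10.54 (-0.11). TALL-1 was level at 11.56, 11.64 and 11.48 against 11.72, 11.49 and 11.50. On average the fall by 0.09 (SE 0.034) just passed, with an adjusted p of 0.0479. The call was lost in 26 of 36 alternatives. On average the second probe set of the gene gave 0 (adjusted p = 0.950) and the third 0.08. The mean of all probe sets gave 0 as well (adjusted p = 0.947). In TALL-1 that dimmer probe set was called higher (0.56, adjusted p = 0.0115), against 0.01 on each of the 2 brighter ones.

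ORAI1 encodes the pore subunit of the main store-operated channel of T cells. No line passed. The DMSO and treated arrays overlapped in SUPT11 (8.60, 8.53 and 8.55 against 8.56, 8.44 and 8.54), P12-ICHIKAWA (8.37, 8.32 and 8.20 against 8.11, 8.35 and 7.91) and RPMI-8402 (10.16, 10.28 and 10.15 against 10.10, 10.23 and 10.21). In TALL-1 the values were 7.10, 6.78 and 7.24 against 7.24, 7.24 and 7.24, and 3 of these 6 arrays held an identical value, so the difference of 0.20 (adjusted p = 0.125) had little resolution. The 95% intervals over the 4 lines ran from -0.39 to 0.41. ORAI1 was measured by 1 probe set above the filter.

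ORAI2 encodes a related subunit that forms channels together with ORAI1. Its treated arrays overlapped those with DMSO in all lines. TALL-1 had 11.97, 11.89 and 11.62 against 11.49, 11.62 and 11.68 (-0.23, adjusted p = 0.0962), and RPMI-8402 had 10.32, 10.51 and 10.45 against 10.68, 10.42 and 10.77 (0.20, adjusted p = 0.170). P12-ICHIKAWA had 11.73, 11.75 and 11.93 against 11.82, 11.67 and 11.63 (-0.10). The differences in TALL-1 and RPMI-8402 had opposite signs on each of the 4 probe sets above the filter, and the F test between lines did not pass (adjusted p = 0.104). Some alternatives called them. The mean of all probe sets gave -0.24 in TALL-1 (adjusted p = 0.00926) and 0.21 in RPMI-8402 (adjusted p = 0.0234), calls in opposite directions. The second probe set was called in RPMI-8402 (0.31, adjusted p = 0.0266), as was the first without RPMI-8402 treated replicate 2 (0.30, adjusted p = 0.0469). Median centring called TALL-1 (-0.28, adjusted p = 0.0491). Without TALL-1 DMSO replicate 3, both ORAI1 (0.30, adjusted p = 0.0277) and ORAI2 (-0.33, adjusted p = 0.0240) were called in TALL-1.

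What set ORAI2 apart was its level in SUPT11. There the DMSO arrays stood at 2.88, 2.86 and 2.86 and the treated arrays at 2.86, 3.20 and 2.86, where 3.20 is the array with transcripts of other lines. In the other 3 lines the DMSO means lay between 10.43 and 11.83. The values in SUPT11 are so near the floor that the size of the gap is a lower bound. The 3 other probe sets above the filter were also lowest in SUPT11, at 3.66, 3.80 and 2.18, the last equally low in RPMI-8402. ORAI1 in SUPT11, at 8.56, was below RPMI-8402 and above P12-ICHIKAWA and TALL-1, so SUPT11 had signal for ORAI1 with next to none for ORAI2. The RefSeq window of ORAI2 is printed for this gene because of that range between lines (chr7:102433325-102433574, plus strand). It was rich in G and C (81.2%), with 35 CG pairs, and held TGACGTG, in capitals, 147 to 141 bases before the start, the only one of the 12 windows with that motif:
ORAI2: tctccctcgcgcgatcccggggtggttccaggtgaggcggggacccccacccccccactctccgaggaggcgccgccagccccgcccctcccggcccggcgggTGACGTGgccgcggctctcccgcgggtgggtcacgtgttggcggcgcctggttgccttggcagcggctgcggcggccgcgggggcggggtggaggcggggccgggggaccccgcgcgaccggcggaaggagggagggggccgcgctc

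TMBIM6 (Bax inhibitor 1) is an ER membrane protein that lets calcium leak from the store and dampens cell death under ER stress. In TALL-1 the DMSO arrays stood at 14.14, 14.15 and 14.14 and the treated arrays at 14.23, 14.26 and 14.33, a rise of 0.13 ± 0.036 (adjusted p = 0.00757). In RPMI-8402 they stood at 14.36, 14.38 and 14.32 and at 14.51, 14.42 and 14.45, a rise of 0.11 ± 0.036 (adjusted p = 0.0254). Both rises are small, 1.09-fold and 1.08-fold, and they rest on a narrow spread: 1% of the tested genes had a lower residual SD. P12-ICHIKAWA (14.51, 14.48 and 14.51 against 14.60, 14.57 and 14.54) was also without overlap, but its 0.07 did not pass, and SUPT11 (14.80, 14.82 and 14.79 against 14.81, 14.84 and 14.79) was level. The second probe set repeated the call in TALL-1 (0.24, adjusted p = 0.00644) and gave -0.04 in RPMI-8402. The call in RPMI-8402 held in 28 of 37 alternatives. It was lost without RPMI-8402 DMSO replicate 3 (adjusted p = 0.101), without RPMI-8402 treated replicate 1 (adjusted p = 0.130) and without the 3 arrays with foreign transcripts (adjusted p = 0.132). Among the other losses were those with the replicate block (adjusted p = 0.0740) and with the mean of all probe sets (0.04, adjusted p = 0.537). The call in TALL-1 was lost when arrays were centred on their median (0.08, adjusted p = 0.160).

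**Figure D4:**
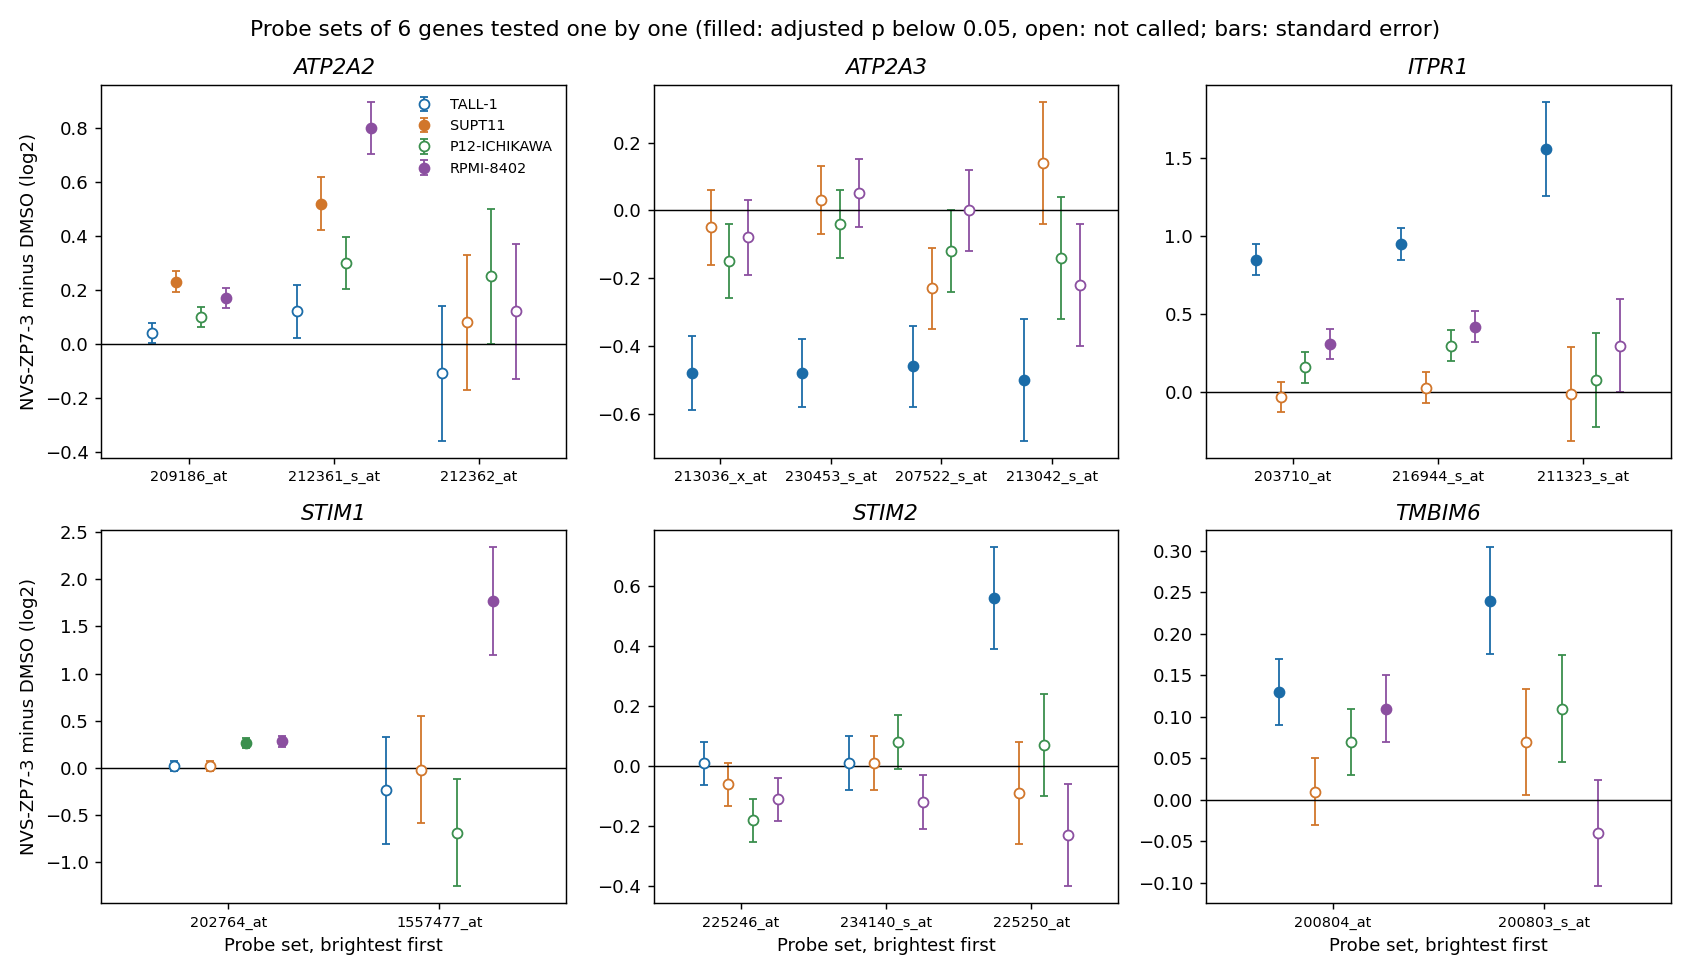
Effect of NVS-ZP7-3 (treated minus DMSO, log2) on each probe set above the filter of 6 of the genes, brightest first, by line, with standard errors as bars. Filled points passed at an adjusted p below 0.05 over 20461 probe sets. The probe sets of ATP2A3 and ITPR1 give the same sign and call in TALL-1, while those of STIM1 part in P12-ICHIKAWA, at 0.26 and -0.69.

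Between the lines, the effect of the compound differed by the F test for 3 of the 10 genes (ATP2A2, ITPR1 and STIM1), where 35.8% of all genes passed. Set against the mean of the other 3 lines, the effect of 3 genes stood apart in TALL-1 (ATP2A2, ATP2A3 and ITPR1; 28.6% of all genes) and of 2 in SUPT11 (ATP2A2 and ITPR1; 15.2%). None stood apart in P12-ICHIKAWA or RPMI-8402, where 8.38% and 18.5% of all genes did. Each line had a combination of its own among the calls. TALL-1 combined more ITPR1 and TMBIM6 with less ATP2A3, SUPT11 had ATP2A2 alone, P12-ICHIKAWA STIM1 alone, and RPMI-8402 had ATP2A2, ITPR1, STIM1 and TMBIM6 together. A call in one line and not in another is not a difference by itself. TMBIM6, called in 2 lines, did not differ between lines (adjusted p = 0.247), and no gene was called in opposite directions on its brightest probe set, although ORAI2 was with the mean of all its probe sets.

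Without the compound the 10 genes all differed between the lines by the F test, as 96.3% of all genes did. For ATP2A2 the DMSO means ran from 14.38 in P12-ICHIKAWA and 14.34 in RPMI-8402, which did not differ beyond their spread (0.04, adjusted p = 0.349), through 14.22 in TALL-1 to 13.91 in SUPT11. Its second probe set ordered the lines differently, with TALL-1 highest at 12.42 and SUPT11 lowest at 9.96. SUPT11 was lowest on both. For ATP2A3 the order was TALL-1 (12.07) and RPMI-8402 (12.04), which did not differ, then P12-ICHIKAWA (11.76) and SUPT11 (10.18). SUPT11 thus had the least signal of both pumps.

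Among the release channels, RPMI-8402 was highest for ITPR1 (10.96) and ITPR2 (11.37). ITPR1 in SUPT11 (9.32) and TALL-1 (9.19) did not differ (adjusted p = 0.210), and P12-ICHIKAWA was lowest at 8.76. ITPR2 followed with TALL-1 (10.32), SUPT11 (9.20) and P12-ICHIKAWA (8.89), all steps called. P12-ICHIKAWA, lowest for ITPR1 and ITPR2 on their brightest probe sets, was highest for ITPR3 at 6.76. TALL-1 at 2.47 lay at background, so that the size of the gap is a lower bound. RPMI-8402 (4.34) and SUPT11 (4.08) did not differ for ITPR3 (adjusted p = 0.373).

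STIM1 was level in P12-ICHIKAWA (10.12), RPMI-8402 (10.11) and TALL-1 (10.09), none of the 3 pairs differing. An identical deposited value stood on DMSO replicates 1 and 3 of TALL-1, 2 and 3 of P12-ICHIKAWA and 1 of RPMI-8402. These 3 means are therefore partly the same value, and the part of the repeats in their likeness was not tested. SUPT11 was lower for STIM1, at 9.26. STIM2 had the opposite extreme, with SUPT11 highest at 12.05, then TALL-1 (11.56), P12-ICHIKAWA (11.22) and RPMI-8402 (10.62), each step called. ORAI1 fell from RPMI-8402 (10.19) through SUPT11 (8.56) and P12-ICHIKAWA (8.30) to TALL-1 (7.04), all steps called. ORAI2 was equal in TALL-1 (11.83) and P12-ICHIKAWA (11.80; adjusted p = 0.909), then 10.43 in RPMI-8402 and 2.87 in SUPT11. TMBIM6 ran from SUPT11 (14.80) through P12-ICHIKAWA (14.50) and RPMI-8402 (14.35) to TALL-1 (14.15). SUPT11 was thus at one end of the order for ATP2A2, ATP2A3, STIM1 and ORAI2 (lowest) and STIM2 and TMBIM6 (highest). Of all genes, 78.9% differed between TALL-1 and SUPT11, 70.3% between TALL-1 and P12-ICHIKAWA, 70.8% between TALL-1 and RPMI-8402, 77.4% between SUPT11 and P12-ICHIKAWA, 79.7% between SUPT11 and RPMI-8402 and 65% between P12-ICHIKAWA and RPMI-8402.

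A further 129 genes of calcium handling were listed, and 97 were tested. In TALL-1, 33 rose and 15 fell (49.5% called, against 41.9% of all genes). RPMI-8402 had 29 rises and 13 falls (43.3% against 36.6%), P12-ICHIKAWA 9 and 6 (15.5% against 7.89%), and SUPT11 7 and 0 (7.22% against 1.76%). On average 38 rose and 17 fell (56.7% called, against 46.9%). The 7 calls in SUPT11 were all in 1 list, the calcium-binding proteins of the ER and Golgi. Of its 14 tested members 11 rose in TALL-1 (41.9% of all genes called in either direction), 11 in RPMI-8402 (36.6%), 7 in SUPT11 (1.76%) and 5 in P12-ICHIKAWA (7.89%). On average 13 rose, where 22.4% of all genes did, and none was called lower in any comparison. The median of their average effects was 0.36. PDIA4, a disulphide isomerase, rose by 1.09 in RPMI-8402, 0.62 in P12-ICHIKAWA, 0.44 in SUPT11 and 0.41 in TALL-1. Of that list, RCN2 did not pass on average (-0.02).

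Of 19 tested regulators of the ER store, 9 rose and 2 fell on average, where 22.4% of all genes rose and 24.5% fell. IRAG2, an ER membrane protein that interacts with IP3 receptors, rose by 1.30 in TALL-1 and 0.84 in RPMI-8402. ITPR1 was called in the same lines, which also had the most calls over all genes (41.9% and 36.6%). SELENOK, a selenoprotein of the ER known for its role in IP3 receptor function in immune cells, rose by 0.80 and 0.59 in those lines and by 0.21 in P12-ICHIKAWA. ITPRIPL1, related in sequence to a protein that binds IP3 receptors, fell in 3 lines, with -2.11 in RPMI-8402, -1.52 in TALL-1 and -1.13 in P12-ICHIKAWA, and gave -0.03 in SUPT11. The third SERCA gene, ATP2A1, best known from skeletal muscle, was called lower in TALL-1 (-0.96 ± 0.35, adjusted p = 0.0356), the line in which ATP2A3 fell. It passed in no other line, and not on average (-0.42, adjusted p = 0.0587).

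Of 13 tested partners of store-operated entry and TRP channels, 3 rose and 4 fell on average, near the 22.4% and 24.5% of all genes. The calcium channel TRPV6 fell in all 3 lines that had signal for it, with -0.66 in RPMI-8402, -1.13 in TALL-1 and -0.86 in P12-ICHIKAWA, and was at the floor in SUPT11. KCNA3 (Kv1.3), the potassium channel that sustains calcium entry in T cells, changed by -2.10 in TALL-1 and was called in no other line. With DMSO it stood at 2.25 in SUPT11 and 2.70 in P12-ICHIKAWA, near the floor, where a like fall could not show. In RPMI-8402, at 4.48 with DMSO, it gave 0.29. Its interaction F test passed (adjusted p = 0.000159), though the floor limited the effects in SUPT11 and P12-ICHIKAWA. CRACR2A, a cytosolic regulator of ORAI and STIM, changed by -0.60 in TALL-1 and -0.64 in RPMI-8402. ORAI3, the third ORAI gene, gave -0.02 on average.

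In the calcineurin and NFAT list, 6 of 15 rose and 2 fell on average (22.4% and 24.5% of all genes). NFAT5 (0.26 on average) and CAMK4 (0.29), a calcium-dependent kinase of T cells, were higher, and by line CAMK4 was called in RPMI-8402 (0.63; interaction F test, adjusted p = 0.0309). AKAP5, a scaffold that holds calcineurin, was called in TALL-1 (-0.68) and RPMI-8402 (-1.51). Of 16 genes of IP3 production and turnover, 2 rose and 2 fell on average, fewer than the 22.4% and 24.5% of all genes. Both rises were called in TALL-1 and in no other line, and both began at background there. INPP1, an inositol phosphatase, went from 2.33 to 4.13. PLCD1, a phospholipase C, went from 2.29 to 4.42, and since it was at background in all other groups, it was tested only because treated TALL-1 was high, so its call was fixed by the filter. IMPA2, an inositol monophosphatase, fell in RPMI-8402 (-1.08).

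Of 14 mitochondrial calcium genes, 3 rose and 5 fell on average (22.4% and 24.5% of all genes). Of the subunits and regulators of the mitochondrial uniporter, SMDT1 rose by 0.84 and MCUR1 by 0.57 in TALL-1, while MCUB changed by -0.31 there. Of 6 pumps and exchangers of the plasma membrane, Golgi and mitochondria, 2 rose and 2 fell on average, again beside 22.4% and 24.5% of all genes. SLC24A1 and SLC8B1, both sodium-calcium exchangers, rose by 0.35 on average, and TMEM165, a Golgi ion transporter, changed by -0.57 in P12-ICHIKAWA.

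Genes whose 8 group means lay closest to those of a member, after each gene was centred on its own mean, were sought for the 3 members with the widest range of effects over the lines. For ATP2A3 they were SMS, CUX1 and BTBD3, with root mean square differences of 0.071, 0.088 and 0.13. These 3 genes also had negative differences in TALL-1, of -0.36, -0.29 and -0.36. Both TALL-1 means were among the 8 matched, so a like sign there is partly built into the choice. For ITPR1 the closest were NAGK, PCED1A and DLG3 (0.27, 0.29 and 0.30), and none shared its rise in TALL-1 in size, at 0.35, 0.14 and 0.09. For ORAI2 they were GAS7, TNFRSF21 and LST1 (0.33, 0.34 and 0.40), so that the likeness lay in the levels of the lines. These are descriptions over 8 groups among 10660 other genes.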

How the data were processed

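Per the submitters' processing notes, GCRMA and limma were used, with no version or setting named; the genome build is not given in the sources used here. The deposited values are on a log2 scale, 1 for each of 54675 probe sets on 24 arrays. GCRMA models background and places undetected probe sets at a common floor, so changes below it are not seen. The cRNA was biotin-labelled by a 3' protocol, per the labels' protocols.

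Probe sets with 1 gene (41097; 1801 had several and 11777 none) were named through the platform annotation, and 41043 matched RefSeq (GRCh38.p14). The brightest probe set over all arrays stood for a gene, tested if 3 or more arrays had it at log2 4 or above. Group means were fitted over 24 arrays with lmFit and eBayes of limma 3.58.1 (R 4.3.3), adjusted by Benjamini-Hochberg over 10661 genes and called below 0.05. Array values have no read depth; the number of arrays limits the precision. The steps were tested on simulated data.

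Named were all 10 genes and up to 3 genes per calcium list with the largest average effect among those called. CALR, CANX and PDIA6 were added for their promoter motif, and PDIA3, ATP2A1, ORAI3 and RCN2 as single cases, after their values were seen. The 10 genes and the lists were chosen with earlier results of these data known. Alternatives were other filters, probe set rules, normalizations, covariates, thresholds, a replicate block and leaving out arrays; testing every probe set by itself was chosen after seeing the data.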

Additional observations from a re-analysis of the deposited data

Results flagged for a closer look

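The effect of NVS-ZP7-3 differed between the 4 lines for 3 of the 10 genes by the F test of the interaction in limma. ATP2A2 gave 0.23 in SUPT11, 0.17 in RPMI-8402, 0.10 in P12-ICHIKAWA and 0.04 in TALL-1 (adjusted p = 0.0194). ITPR1 gave -0.03, 0.31, 0.16 and 0.85 in the same order (adjusted p = 0.000285). STIM1 gave 0.02, 0.28, 0.26 and 0.02 (adjusted p = 0.0107). The same test passed for 35.8% of all genes. It was also refitted with the ACTB and HBB covariates and without the 3 arrays with foreign transcripts, with results not given here. Whether RNA quality, foreign transcripts or repeated values caused these differences was not tested.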

How the results depend on the processing

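Effects of single genes, by line and on average, were followed over the alternatives of processing, threshold and covariate. They stayed on the same side of the threshold in 597 cases, lost a call in 35, gained one in 7 and reversed in 1. An effect that was uncalled both times counts among the 597 whatever its sign. Most effects were not called in the main fit, so the 597 are mostly cases with no call to lose. With the mean of all probe sets the counts of called genes became 0 in SUPT11 and 0 in P12-ICHIKAWA (from 1 each), and STIM1 reversed to -0.22 in P12-ICHIKAWA. Without a filter or with an intensity trend P12-ICHIKAWA had 2. At an adjusted p below 0.01 RPMI-8402 had 2 (from 4) and the interaction 1 (from 3). Requiring also a log2 change of 0.5 left 1 in TALL-1 and 0 in RPMI-8402, P12-ICHIKAWA, SUPT11 and on average, since most changes are smaller. Without the 3 arrays with foreign transcripts RPMI-8402 had 2. Apart from the construction of these alternatives, the cause was not tested. On single other probe sets, STIM1 in P12-ICHIKAWA gave -0.69, STIM2 on average 0.08 and TMBIM6 in RPMI-8402 -0.04. Leaving out each array in turn gave 3 to 5 called genes in TALL-1 (5 without TALL-1 DMSO replicate 3), 2 to 5 in RPMI-8402 (2 without RPMI-8402 DMSO replicate 3), 1 to 1 in P12-ICHIKAWA and 1 to 1 in SUPT11, 5 to 6 on average, 3 to 4 for the interaction and 10 to 10 for the DMSO levels. Deviations of same-numbered DMSO and treated arrays had correlations of -0.14 to 0.42, and those of differently numbered arrays -0.36 to 0.25. The highest was that of replicate 3 in P12-ICHIKAWA. With 3 arrays a group, these values cannot settle whether the numbers pair the arrays. The replicate block gave 3 called genes each in RPMI-8402 and TALL-1, 1 each in P12-ICHIKAWA and SUPT11, 5 on average and 2 for the interaction. Signal over the floor limits ITPR3 in TALL-1 and ORAI2 in SUPT11.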
